A study of Mus musculus with 6 samples.

Results

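Classical cadherins are the calcium-dependent adhesion proteins of the adherens junction. Their extracellular repeats bind cadherins on the neighbouring cell, and their cytoplasmic tails bind beta-catenin and p120-catenin, which connect them to alpha-catenin and actin. Type I members carry a histidine-alanine-valine motif in the outermost repeat, and type II members do not. As the neural plate forms from epiblast, cells shut down Cdh1 (E-cadherin) and turn on Cdh2 (N-cadherin), and the type II members later help motor neurons sort into pools.

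The genes described here are the 8 classical cadherins Cdh1, Cdh2, Cdh3, Cdh4, Cdh6, Cdh7, Cdh11 and Cdh20, chosen by name from the 55400 genes of the deposited table. The first 4 are type I and the other 4 type II. Their mRNA was read by poly(A) RNA-seq in 3 Setd5sh and 3 control libraries. The cells were motor neuron progenitors on day 4 of a differentiation that began with C57BL/6 stem cells of the mouse embryo. Cells of both groups had 1 µM retinoic acid and 0.5 µM SAG, an agonist of the Sonic hedgehog pathway, from day 2, and doxycycline at 1 µg/mL for 36 h. The labels give both groups the genotype WT, and read Setd5sh as a group name, presumably for a hairpin that targets Setd5, with no further detail. They do not say whether control cells carried another hairpin or how many clones were used. The stem cells had been grown on mouse embryonic fibroblasts before differentiation.

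Setd5, the presumed target, stood at 14.4, 13.5 and 12.9 FPKM (fragments scaled to exonic length and to library size) in Setd5sh replicates 1, 2 and 3, against 22.2, 18.8 and 16.7 FPKM in control replicates 1, 2 and 3. Setd5 had a log2 fold change of -0.51 (SE 0.16), at an unadjusted p of 0.0143 and an adjusted p of 0.995, and its groups did not overlap. In counts scaled between libraries, 2.66% of all genes tested likewise had every Setd5sh library below every control library. Total counts ran from 19639303 to 27660851 in Setd5sh libraries and from 19871993 to 32046466 in control libraries. Neural progenitor markers such as Sox2 and Olig2 summed to 399 to 478 FPKM in Setd5sh libraries and 347 to 399 FPKM in control libraries. Genes were tested with edgeR where their mean level reached 1 FPKM. Of the 12199 genes that did, 0 (0%) passed at an adjusted p under 0.05, while 149 had an unadjusted p under 0.05, 75 (0.615%) of them higher and 74 (0.607%) lower in Setd5sh. DESeq2 and limma also called 0 genes, with 221 and 152 at an unadjusted p under 0.05, and so did edgeR with the replicate number as a block (0 of 12199, 0%).

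Day 4 cells of both groups carried far more mRNA of Cdh1 and Cdh2 than of the other 6 cadherins. In FPKM, Cdh1 was the higher of these in every library, while in raw counts it was the higher only in some. Cdh3 and Cdh6 followed at close to 5 FPKM, then Cdh4, and Cdh11, Cdh20 and Cdh7 were below 1 FPKM. None of the 5 tested members passed the threshold between groups, and 2 of the 5 were higher and 3 lower in Setd5sh. None of the 5 had an unadjusted p under 0.05 in this fit, while Cdh2 and Cdh4 each had one in the same 3 of the 20 fits run. These were the blocked fit with the length trend removed, that with the GC trend removed too, and the fit without control replicate 1. Of all 12199 genes, 369, 852 and 361 had an unadjusted p under 0.05 in these fits, against 149 in the edgeR fit described above. The median log2 fold change of the 5 members was -0.06, against -0.04 over all genes tested. That median turned to 0.19 without control replicate 1 and to 0.097 without control replicate 2, where 4 of the 5 were higher, and it also lay above 0 without Setd5sh replicate 1 (0.046), Setd5sh replicate 2 (0.0044) or control replicate 3 (0.018).

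Cdh1, the epithelial cadherin of stem cells and epiblast, lies on chromosome 8 from 106603351 to 106670246 of mm10, plus strand (ENSMUSG00000000303). It stood at 32.6, 46.8 and 34.4 FPKM in Setd5sh replicates 1, 2 and 3, against 30.5, 52.9 and 38.4 FPKM in control replicates 1, 2 and 3. The groups overlapped, and the libraries numbered 2 were the highest of each group. The Setd5sh libraries averaged 37.9 ± 7.74 FPKM and the control libraries 40.6 ± 11.4 FPKM (SD, n = 3 each), with a log2 fold change of -0.10 (SE 0.22, adjusted p = 0.995). Its sign turned, to 0.10, without control replicate 2.

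Cdh2, the cadherin of neural progenitors and neurons, lies on chromosome 18 from 16588877 to 16809246 on the minus strand (ENSMUSG00000024304). It stood at 22.9, 13.3 and 23.0 FPKM in Setd5sh replicates 1, 2 and 3, against 20.5, 11.7 and 15.5 FPKM in control replicates 1, 2 and 3. Here the libraries numbered 2 were the lowest of each group, and the groups overlapped again. Mean Cdh2 was 19.7 ± 5.59 FPKM for Setd5sh and 15.9 ± 4.43 FPKM for control (SD, n = 3 each), with a log2 fold change of 0.30 (SE 0.29, adjusted p = 0.995). Cdh2 in Setd5sh came to 108.8%, 115.9% and 147.6% of its control value when libraries were paired by replicate numbers 1, 2 and 3. Being higher in all 3 pairs was shared by 12.7% of all genes tested, and being lower in all 3 by 12.6%. With the replicate number as a block the log2 fold change was 0.30 (SE 0.15), at an unadjusted p of 0.0953 and an adjusted p of 0.938. The unadjusted p was 0.0359 in the blocked fit with the length trend removed and 0.026 with the GC trend removed too, at adjusted p values of 0.922 and 0.701. The fit with the GC trend removed was added after the data were examined. Without control replicate 2 the log2 fold change was 0.097, and without control replicate 1 it was 0.57, at an unadjusted p of 0.0433 and an adjusted p of 0.997. An antisense gene, Gm15485, overlaps Cdh2, and the sources used here do not say whether reads were counted by strand.

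The ratio of Cdh2 to Cdh1 in FPKM was 0.703, 0.284 and 0.669 in Setd5sh replicates 1, 2 and 3, against 0.672, 0.220 and 0.403 in control replicates 1, 2 and 3. It was below 1 in all 6 libraries and lowest in those numbered 2. Its level relative to 1 depends on division by exonic length, 8066 bases for Cdh2 and 4574 bases for Cdh1. In raw counts Cdh2 was above Cdh1 in Setd5sh replicates 1 (3827 against 3087) and 3 (3643 against 3087). The same held in control replicate 1 (5296 against 4469). In Setd5sh replicate 2 and control replicates 2 and 3, Cdh2 was below Cdh1 in raw counts too. The log2 ratio averaged -0.97 ± 0.74 in Setd5sh and -1.36 ± 0.81 in control (SD, n = 3 each). The difference of 0.39 was smaller than the spread within either group, and an exact two-sided permutation test gave p = 0.6, where 0.1 is the smallest value that 3 against 3 libraries allows. The ratio was higher in Setd5sh in all 3 pairs, by 0.065, 0.36 and 0.73 on the log2 scale (exact sign-flip test, p = 0.25, the smallest possible with 3 pairs). Without control replicate 2 the difference turned to -0.03, and without both libraries numbered 2, an alternative added after the data were examined, it was 0.40.

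**Figure D1:**
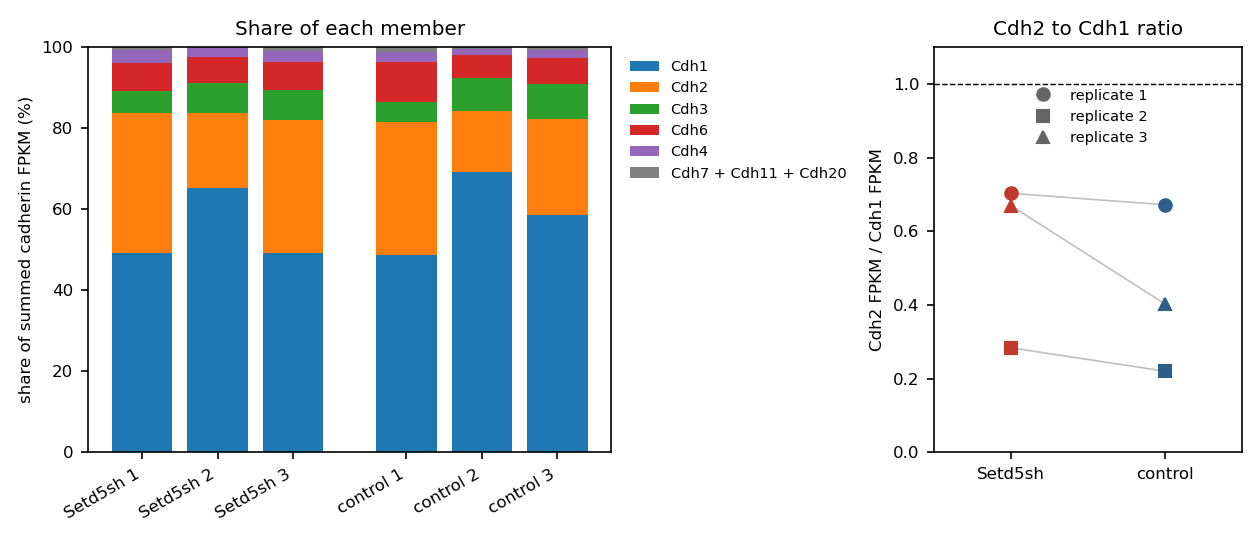
Left, the share (%) of the summed FPKM of the 8 cadherins that each member takes in each library, with Cdh7, Cdh11 and Cdh20 drawn together. Right, the ratio of Cdh2 to Cdh1 FPKM per library, with grey lines joining libraries of the same replicate number and a dashed line at a ratio of 1; all 6 points lie below it, between 0.220 and 0.703.

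Summed over the 8 members, cadherin mRNA amounted to 66.3, 71.8 and 69.9 FPKM in Setd5sh replicates 1, 2 and 3, against 62.5, 76.5 and 65.5 FPKM in control replicates 1, 2 and 3. The type I members made up 91.9% to 93.4% of that sum in Setd5sh libraries and 89.0% to 94.0% in control libraries. These shares hold among the 8 only. The type II cadherin Cdh24, at 7.14 to 9.65 FPKM in Setd5sh and 7.50 to 9.42 FPKM in control libraries, is left out of the sum. Cdh1 alone took 49.1%, 65.2% and 49.2% of the sum in Setd5sh replicates 1, 2 and 3, against 48.8%, 69.1% and 58.6% in control replicates 1, 2 and 3. The share of Cdh2 was 34.5%, 18.5% and 32.9% in the Setd5sh libraries, in the same order, against 32.8%, 15.2% and 23.6% in the control libraries. The total therefore varied by less than the shares of its main components.

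Cdh3 (P-cadherin), another epithelial type I cadherin, lies from 106510891 to 106557297 on chromosome 8 (ENSMUSG00000061048). It is upstream of Cdh1 on the same strand, with a gap of 46.1 kb and 2 other annotated genes between them. It stood at 3.65, 5.36 and 5.05 FPKM in Setd5sh replicates 1, 2 and 3, against 3.07, 6.24 and 5.72 FPKM in control replicates 1, 2 and 3. Like Cdh1, it was highest in control replicate 2 and lowest in control replicate 1, and the groups overlapped. Mean Cdh3 was 4.69 ± 0.911 FPKM for Setd5sh and 5.01 ± 1.7 FPKM for control (SD, n = 3 each), with a log2 fold change of -0.09 (SE 0.28, adjusted p = 0.995). The sign turned without Setd5sh replicate 1, to 0.046, without control replicate 2, to 0.066, and without control replicate 3, to 0.018.

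Cdh4 (R-cadherin), a type I cadherin of the developing retina and brain, spans 179442431 to 179899373 of chromosome 2, plus strand (ENSMUSG00000000305). It stood at 2.07, 1.59 and 1.79 FPKM in Setd5sh replicates 1, 2 and 3, against 1.54, 1.21 and 1.38 FPKM in control replicates 1, 2 and 3. All 3 Setd5sh values lay above the control values in FPKM, but the groups overlapped once the counts were scaled between libraries by TMM, the scaling used in the test. On that scale 2.63% of all genes tested, Cdh4 not among them, had every Setd5sh library above every control library and 2.66% had every one below. The share of genes whose groups lay apart in FPKM was not counted, so how common the FPKM pattern of Cdh4 is remains unknown. Mean Cdh4 was 1.82 ± 0.241 FPKM for Setd5sh and 1.38 ± 0.165 FPKM for control (SD, n = 3 each). The log2 fold change of 0.39 (SE 0.22) was the largest among the 5 tested members, with an adjusted p = 0.995 and an unadjusted p of 0.117. Setd5sh stood at 131.2%, 133.7% and 128.5% of control in pairs 1, 2 and 3, the narrowest range of pair values among the 8 members. With the replicate number as a block the log2 fold change was 0.39 (SE 0.17), at an unadjusted p of 0.0598 and an adjusted p of 0.938. The unadjusted p was 0.0392 in the blocked fit with the length trend removed, 0.0492 with the GC trend removed too and 0.0499 without control replicate 1, at adjusted p values of 0.922, 0.701 and 0.997. The fit with the GC trend removed was an alternative added after the data were examined. The log2 fold change ranged from 0.24 to 0.52 over all alternatives and remained above 0 in each. The pseudogene Gm14300 lies within Cdh4 on the other strand.

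**Figure D2:**
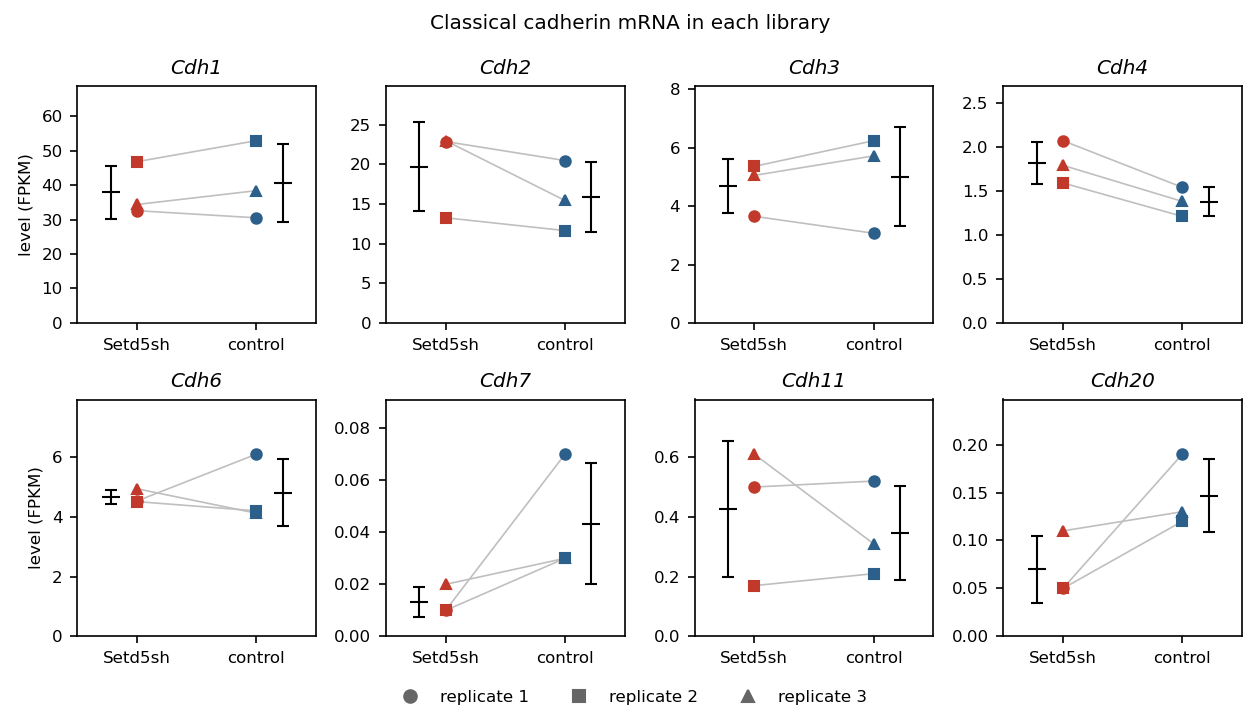
Level in FPKM of each cadherin in each library, with Setd5sh libraries (red) left of control libraries (blue), a panel and a linear axis from 0 for each gene. Symbols mark the replicate number, grey lines join libraries of the same number, and black bars give mean ± SD (n = 3 each); in the Cdh4 panel the red points run from 1.59 to 2.07 FPKM and the blue from 1.21 to 1.54 FPKM.

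Cdh6 (K-cadherin) was the only type II member among the 8 above 1 FPKM. It marks parts of the early neural plate, the neural crest and, later, subsets of motor neurons. The gene lies on chromosome 15 from 13028701 to 13173675 on the minus strand (ENSMUSG00000039385). It stood at 4.54, 4.52 and 4.95 FPKM in Setd5sh replicates 1, 2 and 3, against 6.11, 4.21 and 4.13 FPKM in control replicates 1, 2 and 3. Control replicate 1 was above all other libraries, and the groups overlapped. Mean Cdh6 was 4.67 ± 0.243 FPKM for Setd5sh and 4.82 ± 1.12 FPKM for control (SD, n = 3 each), with a log2 fold change of -0.06 (SE 0.21, adjusted p = 0.995). The sign turned without control replicate 1, to 0.19, and without Setd5sh replicate 2, to 0.0044. It also turned in a blocked fit with trends on GC content and exonic length removed, to 0.19, an alternative added after the data were examined.

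Cdh11 (OB-cadherin), a type II cadherin of mesenchyme that also occurs in neural tissue, lies on chromosome 8 from 102632095 to 102785642 on the minus strand (ENSMUSG00000031673). It was under the expression minimum, at 0.50, 0.17 and 0.61 FPKM in Setd5sh replicates 1, 2 and 3, against 0.52, 0.21 and 0.31 FPKM in control replicates 1, 2 and 3. These levels rested on 93, 43 and 107 counts in Setd5sh and 148, 51 and 55 counts in control. The groups overlapped, and the libraries numbered 2 were the lowest of each group, as for Cdh2. In the edgeR fit with no filter, which called 73 of 29462 genes (0.248%), the log2 fold change was 0.37 (SE 0.39, adjusted p = 0.888). Pooled over libraries, the ratio of Setd5sh to control in CPM (counts scaled to library size) was 1.11 with all 6 libraries, 1.54 without Setd5sh replicate 2, 1.585 without control replicate 1, 0.875 without Setd5sh replicate 3, 0.987 without Setd5sh replicate 1 and 0.914 without control replicate 2. It overlaps 4 small annotated genes of the same strand.

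Cdh7 and Cdh20, type II cadherins known from neural crest and from subsets of spinal motor neurons in the chick, were barely detected. They lie on the plus strand of chromosome 1, Cdh20 (ENSMUSG00000050840) from 104768529 to 104995481 and Cdh7 (ENSMUSG00000026312) from 109982431 to 110140157, with 4.99 Mb between them. Cdh7 had 3, 2 and 4 counts in Setd5sh replicates 1, 2 and 3, against 21, 8 and 6 counts in control replicates 1, 2 and 3. Cdh20 had 4, 5 and 9 counts in Setd5sh replicates 1, 2 and 3, against 24, 13 and 10 counts in control replicates 1, 2 and 3. In FPKM, Cdh7 was at 0.01, 0.01 and 0.02 in Setd5sh and at 0.07, 0.03 and 0.03 in control, and Cdh20 at 0.05, 0.05 and 0.11 in Setd5sh and at 0.19, 0.12 and 0.13 in control.

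For both genes all 3 Setd5sh libraries lay below all 3 control libraries. Among the 8772 genes under the expression minimum with at least 10 counts in all, 7.46% did so, and 20.6% were lower in Setd5sh in all 3 pairs. The pooled ratio of Setd5sh to control in CPM (counts scaled to library size) was 0.299 for Cdh7, with an exact 95% interval of 0.126 to 0.634, and 0.445 for Cdh20, with an interval of 0.243 to 0.781. These intervals cover counting error only. Without control replicate 1, which held 21 of the 35 Cdh7 counts and 24 of the 47 Cdh20 counts of the control group, the ratios were 0.444 (0.170 to 1.102) and 0.541 (0.275 to 1.05). In the fit with no filter the log2 fold changes were -1.52 (SE 0.90) for Cdh7 and -1.01 (SE 0.75) for Cdh20, each at an adjusted p = 0.888, so that neither passed. Permuting the 6 libraries exactly gave a two-sided p = 0.1 for each gene, the smallest value possible. Any gene whose groups do not overlap has this p, so it adds nothing to the lack of overlap. For Cdh20 the nearest libraries were at 0.4598 CPM (Setd5sh replicate 3) and 0.4661 CPM (control replicate 2), scaled by TMM. These rest on 9 and 13 counts, with 95% counting intervals of 4.1 to 17.1 and 6.9 to 22.2 counts that overlap. Cdh20 overlaps 4 annotated genes, among them the antisense gene Gm15699 and, on its own strand, Gm38031 and Gm36969. Their share of the Cdh20 counts was not tested.

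The sequence before the start site was compared for the type II members, since regulators of the Snail and Zeb families are known to bind the letters CAGGTG in cadherin promoters. RefSeq (GRCm38.p6) promoter windows were at hand for 3 of the 8 members, Cdh6, Cdh7 and Cdh20, the last 2 being those with the lowest levels; for Cdh7 the first of 3 windows is shown. Each sequence runs 5′ to 3′ on the gene's own strand over the 250 bases before the RefSeq start site. Capitals mark CAGGTG on either strand (CACCTG is the same letters read on the other strand). For Cdh7 all 3 windows lie inside the annotated gene, which starts at 109982431, because their RefSeq start sites are further downstream.
Cdh6, chr15:13173676-13173925, minus strand: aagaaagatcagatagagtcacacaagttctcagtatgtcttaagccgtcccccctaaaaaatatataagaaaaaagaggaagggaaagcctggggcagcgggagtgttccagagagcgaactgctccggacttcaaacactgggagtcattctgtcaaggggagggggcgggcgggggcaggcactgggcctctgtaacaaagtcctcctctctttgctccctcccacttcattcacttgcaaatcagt
Cdh7, chr1:109982650-109982899, plus strand: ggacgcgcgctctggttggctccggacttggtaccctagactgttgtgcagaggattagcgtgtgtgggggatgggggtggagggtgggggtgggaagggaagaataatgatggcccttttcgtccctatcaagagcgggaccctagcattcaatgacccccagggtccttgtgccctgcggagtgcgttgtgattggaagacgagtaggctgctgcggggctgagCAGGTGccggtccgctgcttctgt
Cdh20, chr1:104768270-104768519, plus strand: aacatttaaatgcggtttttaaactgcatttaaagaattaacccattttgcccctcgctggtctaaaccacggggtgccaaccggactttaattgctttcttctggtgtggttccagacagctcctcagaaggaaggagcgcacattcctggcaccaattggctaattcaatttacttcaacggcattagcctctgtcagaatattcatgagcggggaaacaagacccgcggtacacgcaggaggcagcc

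The Cdh7 window holds the letters at position -24, counted from its RefSeq start site, and the third Cdh7 window holds them at position -83. Both positions are thus within the annotated gene. The letters are not in the windows of Cdh6 and Cdh20. Over all 32851 promoter windows of the same length, 17.2% hold them on either strand. The GC content of the windows was 51.2% for Cdh6, 60.8% for Cdh7 and 47.6% for Cdh20, against a median of 52.4% over all windows.

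Ordered by mean level per length over the 6 libraries, the members ran Cdh1, Cdh2, Cdh3, Cdh6, Cdh4, Cdh11, Cdh20 and Cdh7. The order held in each of the 6 libraries except for Cdh3 and Cdh6. Cdh3 was above Cdh6 in 4 of the 6, and Cdh6 above Cdh3 in Setd5sh replicate 1 and control replicate 1. In raw counts, not divided by exonic length (4384 bases for Cdh3, 9024 bases for Cdh6), Cdh6 was above Cdh3 in all 6. The ranges of these 2 neighbours overlapped, at 3.07 to 6.24 FPKM for Cdh3 and 4.13 to 6.11 FPKM for Cdh6. The ranges of Cdh11 and Cdh20 and of Cdh20 and Cdh7 overlapped as well, while Cdh1 and Cdh2, Cdh2 and Cdh3, Cdh6 and Cdh4, and Cdh4 and Cdh11 were apart.

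Between libraries the members moved in distinct ways. Cdh1 was highest in control replicate 2, then Setd5sh replicate 2, and Cdh3 was highest in control replicate 2, then control replicate 3. Cdh2, Cdh6 and Cdh11 had their 3 highest values in another set of libraries, namely Setd5sh replicates 1 and 3 and control replicate 1. The highest library was 1.73 times the lowest for Cdh1, 1.97 times for Cdh2, 2.03 times for Cdh3, 1.71 times for Cdh4, 1.48 times for Cdh6 and 3.59 times for Cdh11. Within the control group alone the same quotient was 1.73 for Cdh1, 1.76 for Cdh2 and 2.03 for Cdh3, so the libraries of this group spanned as much as, or nearly as much as, all 6. For Cdh4 it was 1.302 in Setd5sh and 1.27 in control, below its quotient of 1.71 over all 6 libraries.

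**Figure D3:**
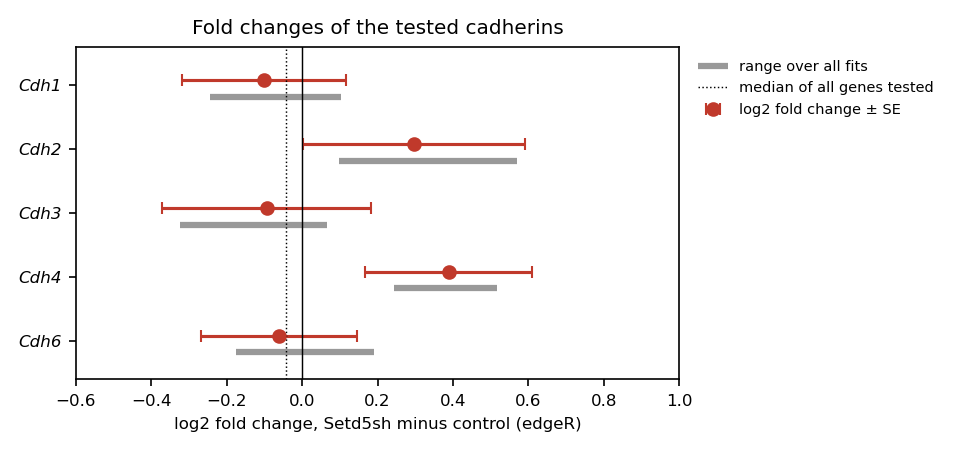
Log2 fold change, Setd5sh minus control, from edgeR for the 5 tested cadherins (red points, bars ± SE), with the range over all fits in grey and the median of all genes tested, -0.04, as a dotted line. The grey ranges of Cdh1, Cdh3 and Cdh6 cross 0, and those of Cdh2 (0.097 to 0.57) and Cdh4 (0.24 to 0.52) do not.

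The genes whose centred log2 levels over the 6 libraries lay nearest to those of Cdh1 were Rcan3, Fam131a and Shank3, with root mean square differences of 0.046, 0.048 and 0.050 on the log2 scale. The median difference over all genes tested was 0.34. Genes chosen as the nearest lie below that median by construction, and the same holds for Cdh2. Nearest to Cdh2 were Ccnd2, which encodes cyclin D2, at 0.064, the amino acid transporter gene Slc38a2 at 0.084 and the adhesion receptor gene Adgrg1 at 0.084, against a median of 0.49. Ccnd2 stood at 168, 104 and 158 FPKM in Setd5sh replicates 1, 2 and 3, against 148, 86.0 and 106 FPKM in control replicates 1, 2 and 3, and so had the same low libraries numbered 2.

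Of 17 epithelial junction genes, a list that covers claudins, occludin, zonula occludens proteins, desmosomal proteins and simple keratins, 11 had their highest 2 values in the libraries numbered 2, as Cdh1 did, a pattern found in 16.9% of all genes tested. Among the other 6, Tjp1 and Dsp were highest in control replicate 1, where Cdh1 was lowest, and Krt8 and F11r in Setd5sh replicate 3; Tjp1, Dsp and F11r are named with their values known. Epcam, an epithelial surface protein picked with its values already known, stood at 20.97, 46.6 and 19.4 FPKM in Setd5sh replicates 1, 2 and 3, against 24.0, 58.8 and 32.7 FPKM in control replicates 1, 2 and 3. Between groups, 5 of the 17 were higher and 12 lower in Setd5sh (median log2 fold change -0.17), and none passed. The desmosomal cadherins Dsc2 and Dsg2, which build desmosomes and not adherens junctions, differed by a log2 fold change of -0.41 (SE 0.18) for Dsc2 and -0.25 (SE 0.20) for Dsg2. The keratins Krt8 and Krt18 had 0.49 (SE 0.28) and 0.21 (SE 0.29), and the claudin Cldn6 had 0.06 (SE 0.28). Each of these 5 had an adjusted p = 0.995.

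The 7 stem cell markers had their highest sums in the libraries numbered 2, as Cdh1 did. They summed to 28.3, 64.4 and 9.78 FPKM in Setd5sh replicates 1, 2 and 3, against 19.4, 87.0 and 28.4 FPKM in control replicates 1, 2 and 3, most of it Dppa5a. All 4 tested members were highest in the libraries numbered 2. Pou5f1, which encodes the pluripotency factor Oct4 and was picked with its values known, stood at 0.86, 5.23 and 0.27 FPKM in Setd5sh and 1.49, 8.31 and 1.93 FPKM in control, in the same order. Whether Cdh1 mRNA came from remaining stem-like cells or from the progenitors themselves was not tested, and fewer cells of a type and less RNA per cell cannot be told apart in such bulk libraries. Without both libraries numbered 2, the log2 fold change was -0.03 for Cdh1 and 0.37 for Cdh2.

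Neuronal markers, 7 genes, summed to 75.3, 56.1 and 75.3 FPKM in Setd5sh replicates 1, 2 and 3, against 47.2, 46.9 and 45.4 FPKM in control replicates 1, 2 and 3. The excess in Setd5sh came mostly from Tubb3, at 53.5, 30.5 and 55.03 FPKM in Setd5sh and 18.98, 17.3 and 26.1 FPKM in control, in the same order. The other 6 summed to 21.7, 25.6 and 20.3 FPKM in Setd5sh and 28.2, 29.7 and 19.3 FPKM in control, a sum made after the values were seen that was higher in Setd5sh in 1 of 3 pairs. Mnx1, a motor neuron gene, was lower in Setd5sh in all 3 pairs, with a log2 fold change of -0.61 (SE 0.47, adjusted p = 0.995). Among the Setd5sh libraries Tubb3 was lowest in replicate 2, as were Cdh2 and Cdh4. The sum of the other 6 was highest there, with Mnx1 at 17.1 of the 25.6 FPKM. Elavl3, Elavl4, Isl1 and Dcx were each lowest in that library among the Setd5sh libraries, at 3.44, 3.03, 0.96 and 0.25 FPKM. Tubb3 had a log2 fold change of 1.15 (SE 0.27) in edgeR, at an unadjusted p of 0.00321 and an adjusted p of 0.995. An unadjusted p under 0.05 with a higher level in Setd5sh was found for 0.615% of all genes tested. Of the 5 tested neuronal markers, 4 were higher and 1 lower in Setd5sh (median log2 fold change 0.38), and none passed. Over all genes tested 42.6% were higher. Whether neurons contributed to Cdh2 or Cdh4 was not tested. Markers of mesenchyme and fibroblasts, which would include feeder cells, summed to 7.21 to 9.29 FPKM over 8 genes in Setd5sh and 5.46 to 8.66 FPKM in control, with Lum under 0.05 FPKM in all libraries. Neural crest markers summed to 1.55 to 2.20 FPKM in Setd5sh and 1.82 to 2.15 FPKM in control, and those of surface ectoderm to 0.64 to 1.07 and 0.69 to 1.29 FPKM, with Krt14 and Trp63 under 0.05 FPKM. Roof plate markers summed to 3.70 to 5.61 FPKM in Setd5sh and 2.00 to 2.60 FPKM in control, mostly Msx1. In edgeR Msx1 had a log2 fold change of 1.15 (SE 0.30), at an unadjusted p of 0.00538 and an adjusted p of 0.995. Vessel and blood markers summed to at most 0.45 FPKM in either group. Endoderm and floor plate markers summed to 34.3 to 38.5 FPKM in Setd5sh and 23.8 to 37.0 FPKM in control, mostly Foxa2.

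**Figure D4:**
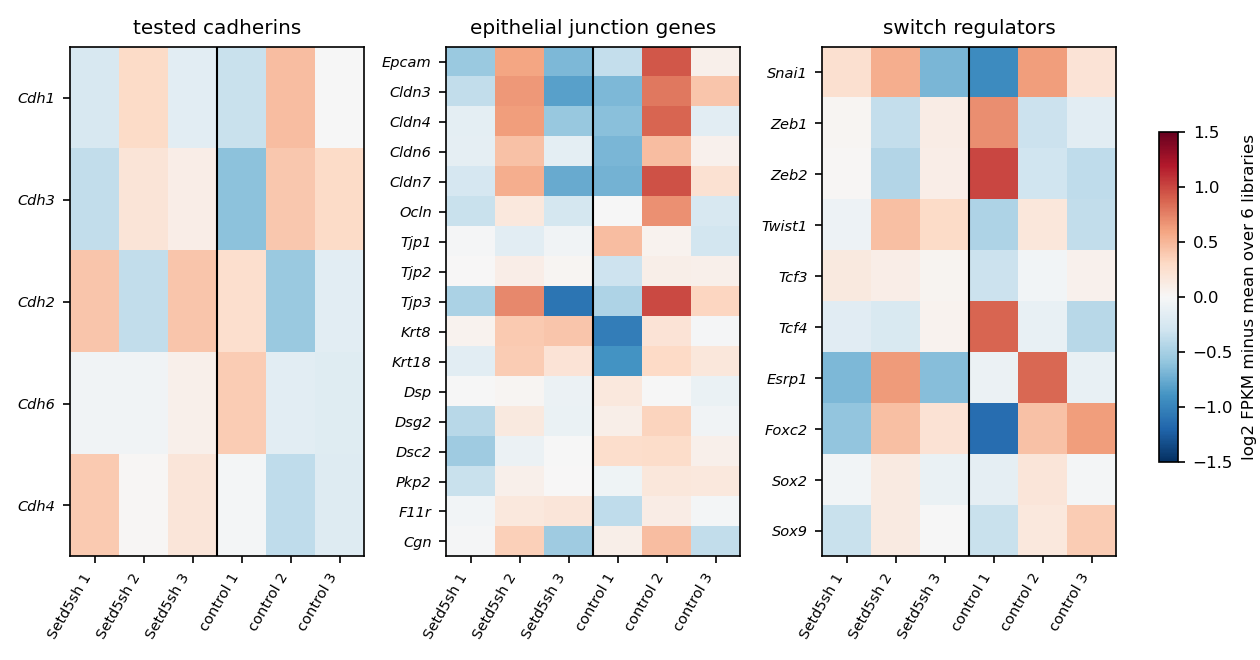
Log2 FPKM minus the gene's mean over the 6 libraries (colour) for the 5 tested cadherins, the 17 epithelial junction genes and the 10 tested switch regulators, with Setd5sh libraries left of the black line and control libraries right of it. The libraries numbered 2 are red for Cdh1 and Epcam and blue for Cdh2. Control replicate 1 is red for Zeb1, Zeb2 and Tcf4 and blue for Snai1, Twist1 and Tcf3.

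Of 16 transcription and splicing factors known to govern the Cdh1 to Cdh2 switch, 10 were tested, 3 of them higher and 7 lower in Setd5sh (median log2 fold change -0.11), and none passed. The E proteins Tcf3 and Tcf4, which can repress Cdh1, differed by a log2 fold change of 0.18 (SE 0.14) for Tcf3 and -0.36 (SE 0.34) for Tcf4, and Twist1 by 0.42 (SE 0.30), each at an adjusted p = 0.995. Tcf3 was the highest of the list, with a mean of 93.03 ± 3.65 FPKM for Setd5sh and 81.9 ± 10.9 FPKM for control, followed by the progenitor factor Sox2 with 74.0 ± 6.47 FPKM for Setd5sh and 74.6 ± 8.43 FPKM for control (SD, n = 3 each). Zeb1, a repressor of Cdh1 picked with its values already known, stood at 3.93, 2.99 and 4.15 FPKM in Setd5sh replicates 1, 2 and 3, against 6.22, 3.07 and 3.45 FPKM in control replicates 1, 2 and 3. Its relative Zeb2, chosen in the same way, was likewise highest in control replicate 1, at 5.53 FPKM, the library with the lowest Cdh1 and Cdh3. Tcf4 was also highest in that library, at 3.43 FPKM. Other repressors of Cdh1 on the list, Snai1 at 0.60 FPKM, Twist1 at 1.36 FPKM and Tcf3 at 69.8 FPKM, had their lowest value of all 6 libraries there.

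Of 17 genes for the partners of cadherins (catenins, nectins and anchors), 16 were tested, 9 of them higher and 7 lower in Setd5sh (median log2 fold change 0.03), and none passed. Beta-catenin (Ctnnb1) averaged 187 ± 12.4 FPKM for Setd5sh and 196 ± 7.54 FPKM for control, and alpha-catenin (Ctnna1) 56.2 ± 1.72 FPKM for Setd5sh and 57.2 ± 6.47 FPKM for control (SD, n = 3 each). Delta-catenin (Ctnnd2), the neural relative of p120-catenin, had a log2 fold change of 0.38 (SE 0.29), plakoglobin (Jup) 0.32 (SE 0.35) and the polarity gene Pard3 0.12 (SE 0.14), each at an adjusted p = 0.995. Ctnna2, the neuronal alpha-catenin, was also picked with its values known. It was under the expression minimum, at 0.28, 0.28 and 0.31 FPKM in Setd5sh replicates 1, 2 and 3, against 0.37, 0.45 and 0.38 FPKM in control replicates 1, 2 and 3.

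Proteases and trafficking genes that cut or recycle cadherins also did not pass. Of 13 listed, 12 were tested, 5 higher and 7 lower in Setd5sh, with a median log2 fold change of -0.04. Adam10, the sheddase that releases the ectodomain of Cdh1 and Cdh2, averaged 17.7 ± 0.666 FPKM for Setd5sh and 21.4 ± 6.13 FPKM for control (SD, n = 3 each), with a log2 fold change of -0.29 (SE 0.22). Ncstn, which encodes nicastrin, had 0.17 (SE 0.16), and Rab11a, which returns cadherins to the surface, had -0.27 (SE 0.16). Each of these 3 had an adjusted p = 0.995.

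Among 11 other classical cadherins, Cdh24 was the only gene tested. This type II cadherin stood at 7.14, 9.65 and 8.44 FPKM in Setd5sh replicates 1, 2 and 3, against 9.42, 7.50 and 7.95 FPKM in control replicates 1, 2 and 3, a log2 fold change of 0.00 (SE 0.19, adjusted p = 0.999). Its level lay above those of Cdh3, Cdh6 and Cdh4 in all 6 libraries, which places it after Cdh2 in the family. Cdh22 averaged 0.56 ± 0.08 FPKM for Setd5sh and 0.407 ± 0.143 FPKM for control (SD, n = 3 each). Cdh8, Cdh9, Cdh12, Cdh18, Cdh19 and Cdh26 were under 0.05 FPKM in every library.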

How the data were processed

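The authors deposited raw counts and FPKM of 55400 Ensembl genes for all 6 libraries in 1 table, with exonic lengths. HISAT2, SAMtools, HTSeq, DESeq2 and mm10 are listed without roles in the submitters' processing notes. Neither annotation release nor strand setting is stated in the sources used here. Symbols and coordinates came from GENCODE release M21 (mm10), which named 55140 identifiers (99.5%).

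The counts were tested with edgeR 4.0.16 (quasi-likelihood, TMM scaling, group as the only term) in R 4.3.3 over the 12199 genes with a mean of at least 1 FPKM, with Benjamini-Hochberg adjustment, two-sided, at 0.05. Fold changes are Setd5sh minus control. DESeq2 1.42.0, limma 3.58.1 on log2(FPKM + 1) or log2(FPKM + 0.1), and other scalings, filters, blocks and sets of libraries were alternatives. Scripts were tested on simulated data. The figures were drawn with matplotlib 3.10.9.

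Libraries of the same replicate number deviated together from their group means (r across genes of 0.183, 0.663 and 0.139, each over 0.1), although Setd5sh replicate 3 and control replicate 1 correlated at 0.166. By the rule of 0.1 the numbers were treated as pairs, but the labels do not say that they mark pairs. In the data only number 2 stood clearly apart, at 0.663. Setd5sh replicate 3 correlated less with its own number than with control replicate 1, so pairing of numbers 1 and 3 is not established. The p-values printed are unpaired unless a block or pairs are named. Any 2 libraries differed by more than sampling noise, with a smallest chi-square per degree of freedom of 8.49. The labels do not say that replicates were separate cultures, so p-values may measure only technical spread. The members and lists were chosen with earlier results of these data known. Genes named beside the members are the 3 with the smallest p and the 2 with the highest mean FPKM in each list, and the 3 genes nearest in pattern to Cdh1 and Cdh2; other genes were named with their values known, cell type markers among them. One gene that this rule names is not reported here.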

Additional observations from a re-analysis of the deposited data

How the results depend on the processing

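The count of 0 genes called by edgeR became 73 with no filter on low values and 2 in DESeq2 with the replicate block, an alternative added after the data were examined, and was 0 in the other 17 alternatives. No cadherin was called in any of them. Cdh2 and Cdh4 remained above 0 in all 19. Leaving out single libraries gave log2 fold changes of -0.24 to 0.10 for Cdh1, -0.325 to 0.066 for Cdh3 and -0.175 to 0.191 for Cdh6. Cdh3 was at 0.0017 without both libraries numbered 2. Cdh6 was at 0.020 with no filter, 0.046 with the replicate block and the length trend removed, and 0.187 with the GC trend removed too. The difference in the log2 ratio of Cdh2 to Cdh1 ran from -0.026 to 0.81 without single libraries, and was 0.39 with the replicate block (paired). The cause of these turns was not tested. With no filter the median of all genes moved to -0.10. The replicate block changed no call of a member. The median over the tested members moved in 9 of the 19. The values of Cdh7 and Cdh20 rest on 9 to 47 counts per group, which limits their precision.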
